A study of Mus musculus with 36 samples.

Results

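The genes described here are 10 markers of oligodendrocyte precursors and newly formed oligodendrocytes, chosen by name from a mouse hippocampal RNA-seq count table: Pdgfra, Cspg4, Olig1, Olig2, Sox10, Gpr17, Enpp6, Bcas1, Bmp4 and Fyn. All 10 were among the 25382 genes tested of 50559 in the table, and the lowest count of any of them in any library was 88. The 36 libraries are bulk hippocampal input fractions from female mice aged 6 months, all carrying PV_Cre and RiboTag+/-. The Control groups carry nothing further, the APP groups the APP Sw,Ind transgene of the J9 line, the Tau groups the P301S tau transgene of the PS19 line, and the APP/Tau groups both. The J9 transgene is driven by a PDGF-B promoter and the PS19 transgene by the prion protein (Prnp) promoter, and both are expressed mainly in neurons. Naive mice were handled and stayed in their home cage, whereas the trained ones had 5 days of Morris water maze with 6 trials on each and were killed 2 hours after a probe trial. There were 6 Control naive, 5 APP naive, 4 Tau naive, 6 APP/Tau naive, 5 Control trained, 3 APP trained, 4 Tau trained and 3 APP/Tau trained libraries. The input fraction is cleared tissue lysate taken without pulling down the tagged ribosomes, so it holds RNA of all hippocampal cells.

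Counts per library lay between 69.2 M and 124.8 M (M for mega), with a median of 85.4 M. Levels are given in CPM, a gene's counts per 1 M counts of the library, on library sizes scaled by the trimmed mean of M values (TMM). The labels were checked with Prnp and Usp16. Prnp stood between 1423 and 2142 CPM in 16 of 17 Tau-labelled libraries and between 728 and 879 CPM in the 19 others, whereas the library labelled Tau trained replicate 4 had 846 CPM, inside the range of the libraries without the transgene. Usp16, a gene on chromosome 16 whose level is lower in the APP-labelled libraries, was between 12.9 and 14.9 CPM in all 17 of them and no lower than 24.8 CPM elsewhere. Control trained replicate 4 had a summed level of 8 striatal markers of 610 CPM against at most 174 CPM in the other 35 libraries. The results below are given with these libraries. Differences of Enpp6, Sox10 and Bcas1 between Tau-labelled and other libraries are repeated without them. Enpp6 in Tau trained against Control trained is repeated without Tau trained replicate 4. Other differences of single genes that involve the Tau trained or Control trained group are printed with them, including those between training states.

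Oligodendrocytes arise from precursor cells that carry the platelet-derived growth factor receptor alpha (Pdgfra) and the proteoglycan NG2 (Cspg4), keep dividing in the adult brain and are spread through grey and white matter. The transcription factors Olig1, Olig2 and Sox10 are present through the lineage, and Sox10 activates the genes of myelin. As precursors commit to differentiate they pass through a stage with the receptor Gpr17, then through newly formed and premyelinating stages marked by the phosphodiesterase Enpp6 and the protein Bcas1, and end as myelinating cells with Mbp. Bmp4 is a secreted ligand that holds back differentiation. The Src family kinase Fyn promotes process growth and local Mbp translation, and it is also abundant in neurons, where it binds tau. Pdgfra is also expressed by fibroblasts and Cspg4 by pericytes, so the bulk levels are not those of precursors alone.

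RefSeq promoter windows of 300 bases (from 250 bases before to 50 bases after the annotated start, GRCm38.p6, which is not the mm39 build of the counts) were at hand for 6 of the 10 genes, and those of Enpp6, Olig2 and Pdgfra are shown. Enpp6 is shown because it differed most with the Tau transgene, Pdgfra because it defines the precursor stage, and Olig2 because it was the other gene with a match to the motif searched. The windows are chr8:46986637-46986936, chr16:91225300-91225599 and chr5:75152001-75152300, all on the plus strand. Capitals mark the letters AACAAT, a sequence bound by Sox proteins of the Sox10 group, or ATTGTT, the same letters on the other strand.
Enpp6: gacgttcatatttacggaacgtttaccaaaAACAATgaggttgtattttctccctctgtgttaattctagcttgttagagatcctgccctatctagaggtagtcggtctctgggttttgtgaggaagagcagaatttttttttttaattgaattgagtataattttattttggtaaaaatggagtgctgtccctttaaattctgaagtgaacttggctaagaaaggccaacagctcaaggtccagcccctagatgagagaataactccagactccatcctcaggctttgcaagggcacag
Olig2: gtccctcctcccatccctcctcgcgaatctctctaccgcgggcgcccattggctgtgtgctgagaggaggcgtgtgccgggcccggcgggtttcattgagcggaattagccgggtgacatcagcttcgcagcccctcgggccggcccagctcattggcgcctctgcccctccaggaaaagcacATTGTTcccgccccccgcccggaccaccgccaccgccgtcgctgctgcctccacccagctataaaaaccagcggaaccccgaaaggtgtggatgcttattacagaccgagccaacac
Pdgfra: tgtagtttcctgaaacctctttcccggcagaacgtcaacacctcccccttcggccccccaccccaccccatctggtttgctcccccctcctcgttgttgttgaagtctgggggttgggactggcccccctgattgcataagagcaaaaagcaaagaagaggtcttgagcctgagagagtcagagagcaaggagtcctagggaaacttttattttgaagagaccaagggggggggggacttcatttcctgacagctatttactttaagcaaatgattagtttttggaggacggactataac
The motif starts 220 bases before the annotated start in Enpp6 and 67 bases before it in Olig2. It was not found in the windows of Pdgfra, Cspg4, Bmp4 and Fyn, and 10.7% of the 32851 RefSeq windows of this length held it. The E-box CAGCTG, which reads the same on both strands and does not overlap the Sox letters, was in none of the 6 windows and in 16.3% of all windows. These matches are descriptions of letters and not of bound sites.

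Per kb of annotated exon (GENCODE M21), the mean level over the 36 libraries was highest for Olig1, at 50.6 CPM per kb. Fyn followed at 31.1 CPM per kb and Bcas1 at 28.7 CPM per kb. Sox10 (14.2 CPM per kb), Olig2 (12.2 CPM per kb), Gpr17 (9.36 CPM per kb) and Pdgfra (5.69 CPM per kb) were intermediate. The scarcest were Cspg4 at 1.85 CPM per kb, Enpp6 at 1.40 CPM per kb and Bmp4 at 1.00 CPM per kb, so the newly formed marker Enpp6 was about as scarce per length as the ligand Bmp4.

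The spread of the 8 group means differed between the genes. Enpp6 means ran from 5.89 CPM (Control trained) to 11.7 CPM (Tau trained) and Bcas1 means from 85.1 to 141 CPM, while Fyn means ran from 129 to 149 CPM. In the order of the levels, neighbouring groups were mostly not separated: of 70 gaps between neighbouring group means, 1 exceeded the larger of the 2 SDs: Enpp6 in Control naive (8.21 ± 1.31 CPM, SD, n = 6) against APP trained (6.27 ± 0.98 CPM, SD, n = 3). All 10 genes had their highest mean in a Tau-labelled group, and all 10 had their lowest mean in a trained group without the Tau transgene, which was Control trained for 4 genes and APP trained for 6. Some of these places rest on small gaps, such as Olig1 in Tau naive (118.4 CPM) over Control naive (117.6 CPM, SD 18.9). The share of all genes with this order was not counted.

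The first comparison asked how carriers of the Tau transgene (17 libraries) differed from non-carriers (19 libraries) over both APP states and both training states. Enpp6, Sox10 and Bcas1 were higher in the carriers, and these were 3 of the 10 genes that passed edgeR's quasi-likelihood test at an adjusted p under 0.05. Over all genes the same threshold was passed by 212, of which 184 were higher and 28 lower (0.835% of genes tested). The remaining 7 genes, among them Pdgfra and Cspg4, the markers of the precursors themselves, did not pass. In bulk tissue a higher level from more cells of a type and from more RNA per cell cannot be told apart.

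**Figure D1:**
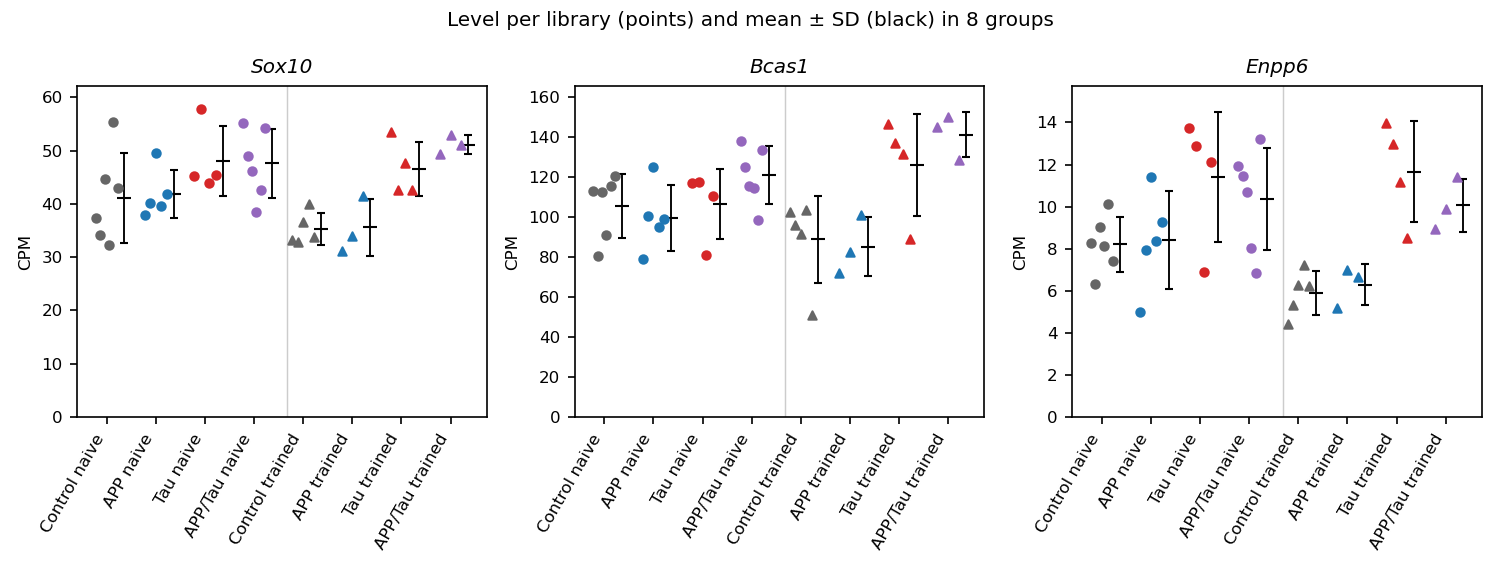
Level in CPM (vertical axis) of Sox10, Bcas1 and Enpp6 in each of the 36 libraries (points) by group (horizontal axis), with circles for naive and triangles for trained libraries and the mean ± SD of each group in black. In the trained groups on the right of each panel, all Tau and APP/Tau points of Enpp6 lie above all Control and APP points, while in the naive groups the points overlap.

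Enpp6, a phosphodiesterase that cleaves choline lipids and marks oligodendrocytes as they form, ranged from 6.84 to 13.99 CPM in the carriers (median 11.4) and from 4.41 to 11.4 CPM in the non-carriers (median 7.20). The ranges overlapped, but 8 of 17 carriers stood above the highest non-carrier and 8 of 19 non-carriers below the lowest carrier. The difference was 0.61 on the log2 scale (SE 0.11, adjusted p = 0.0032 by edgeR's quasi-likelihood test). In the trained groups without the transgene all libraries were low: Control trained had 4.41, 5.33, 6.25, 7.20 and 6.23 CPM, and APP trained had 5.16, 6.99 and 6.66 CPM. Tau trained had 13.99, 12.99, 11.2 and 8.49 CPM, of which the lowest is the library whose Prnp level went against its label. APP/Tau trained had 8.91, 9.88 and 11.4 CPM. None of these 7 values overlapped the 8 values of the trained libraries without the transgene.

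In the naive libraries Enpp6 was more spread. Tau naive had 13.7, 12.9, 6.89 and 12.1 CPM, so 3 of 4 libraries were above every Control naive library and 1 was near the lowest of them. Control naive ran from 6.31 to 10.1 CPM (median 8.19) and APP/Tau naive from 6.84 to 13.2 CPM (median 11.1). APP naive had 5.00, 7.93, 11.4, 8.35 and 9.28 CPM. The naive groups overlapped in every pairing.

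Sox10, the transcription factor of the whole lineage, ranged from 38.5 to 57.8 CPM in the carriers (median 47.6) and from 31.2 to 55.3 CPM in the non-carriers (median 38.0). All 17 carriers lay above the median of the non-carriers, and 10 of 19 non-carriers lay below the lowest carrier. The difference was 0.33 on the log2 scale (SE 0.06, adjusted p = 0.0072 by edgeR's quasi-likelihood test). As with Enpp6, the trained groups did not overlap: Tau trained had 53.4, 42.6, 47.6 and 42.6 CPM and APP/Tau trained 49.4, 53.0 and 51.0 CPM, whereas Control trained had 33.3, 32.8, 36.5, 40.0 and 33.8 CPM and APP trained 31.2, 34 and 41.5 CPM. In the naive groups Sox10 ran from 32.4 to 55.3 CPM in Control and had 45.2, 57.8, 43.9 and 45.5 CPM in Tau, which overlapped.

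Bcas1, a protein of premyelinating and early myelinating cells, ranged from 80.7 to 150.0 CPM in the carriers (median 125) and from 50.9 to 125 CPM in the non-carriers (median 98.7). Of the 17 carriers 9 lay above the highest non-carrier, and 4 of 19 non-carriers lay below the lowest carrier. The difference was 0.38 on the log2 scale (SE 0.09, adjusted p = 0.028 by edgeR's quasi-likelihood test). APP/Tau trained was the highest group, with 145, 150.0 and 128 CPM, all above the other trained libraries except those of Tau trained, which had 146, 137, 132 and 89.0 CPM. Control trained had 102, 95.9, 91.5, 104 and 50.9 CPM.

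The Bcas1 call was the least firm of the 3. Leaving out single libraries ended it in 5 cases: adjusted p was 0.062 with Tau naive replicate 2 left out, 0.078 and 0.053 with APP trained replicate 1 or 2 left out, and 0.060 and 0.056 with Tau trained replicate 1 or 3 left out (edgeR's quasi-likelihood test). The Enpp6 and Sox10 calls held with each library left out in turn, with adjusted p of at most 0.014 and 0.028. Without Tau trained replicate 4, whose Prnp level went against its label, the differences were 0.64 for Enpp6, 0.34 for Sox10 and 0.42 for Bcas1 on the log2 scale, and 3 of the 10 genes passed as before. Without that library and the one with high striatal markers they were 0.66, 0.36 and 0.43.

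The same difference can be read in each of 4 pairs of groups that differ by the Tau transgene. Enpp6 was higher in all 4 pairs: by 0.47 (SE 0.19, log2) in Tau naive over Control naive, 0.29 (SE 0.18) in APP/Tau naive over APP naive, 0.99 (SE 0.21) in Tau trained over Control trained and 0.68 (SE 0.25) in APP/Tau trained over APP trained. Sox10 differed by 0.22, 0.18, 0.40 and 0.52 in the same order. Bcas1 differed by 0.01, 0.28, 0.51 and 0.73, and Tau naive stood at 106 ± 17.4 CPM (SD, n = 4) beside 105 ± 15.9 CPM (SD, n = 6) in Control naive. For all 3 genes the pairs with the larger values were the trained ones. The dependence on training was tested for Tau against Control, where it did not pass (the interactions follow at the end), and was not tested for APP/Tau against APP.

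The other 7 genes were between 0.02 and 0.14 (log2) in carriers against non-carriers. Among the receptors and surface proteins, Pdgfra, which receives the PDGF signal that keeps precursors dividing, differed by 0.08 (SE 0.04, adjusted p = 0.35 by edgeR's quasi-likelihood test). Its carriers ran from 51.3 to 71.1 CPM (median 57.4) and its non-carriers from 46.3 to 65.1 CPM (median 56.5). The ranges overlapped, with 3 of 17 carriers above the highest non-carrier and 4 of 19 non-carriers below the lowest carrier. Cspg4 differed by 0.11 (SE 0.05, adjusted p = 0.27) and ran from 18 to 27.6 CPM in carriers and from 17.1 to 25.8 CPM in non-carriers. Gpr17, the receptor of committed precursors, differed by 0.07 (SE 0.08, adjusted p = 0.76), with 37.2 to 71.4 CPM in carriers and 39.0 to 59.8 CPM in non-carriers. These 3 surface markers of the earlier stages overlapped widely between carriers and non-carriers. Their pooled values averaged pairs of groups with unlike signs. In the order given for Enpp6, Pdgfra differed by 0.21, -0.14, 0.23 and 0.006 (log2) and Cspg4 by 0.25, -0.22, 0.16 and 0.24. Gpr17 differed by -0.002, 0.03, 0.11 and 0.14.

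Of the transcription factors other than Sox10, Olig1 differed by 0.14 (SE 0.05, adjusted p = 0.19 by edgeR's quasi-likelihood test) and Olig2 by 0.12 (SE 0.06, adjusted p = 0.36). Olig1 had 14 of 17 carriers above the median of the non-carriers and Olig2 15 of 17, with no Olig1 carrier and 1 Olig2 carrier above the highest non-carrier. The ligand Bmp4 differed by 0.07 (SE 0.13, adjusted p = 0.87), and the kinase Fyn by 0.02 (SE 0.03, adjusted p = 0.83). Fyn was the steadiest of the 10 genes by its SE, at 136 ± 10.5 CPM (SD, n = 17) in carriers and 135 ± 7.17 CPM (SD, n = 19) in non-carriers.

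Over the 10 genes the median difference was 0.11 (log2) and 10 of 10 were above 0, against a median of -0.007 and 47.0% above 0 over all genes tested. At an unadjusted p under 0.05 there were 7 of the 10 genes and 13.2% of all genes. The genes share the same libraries and partly the same cells, so these counts describe the libraries and are not independent observations. The 10 genes were also chosen with earlier results of these data known, so setting them beside all genes is not a test.

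**Figure D2:**
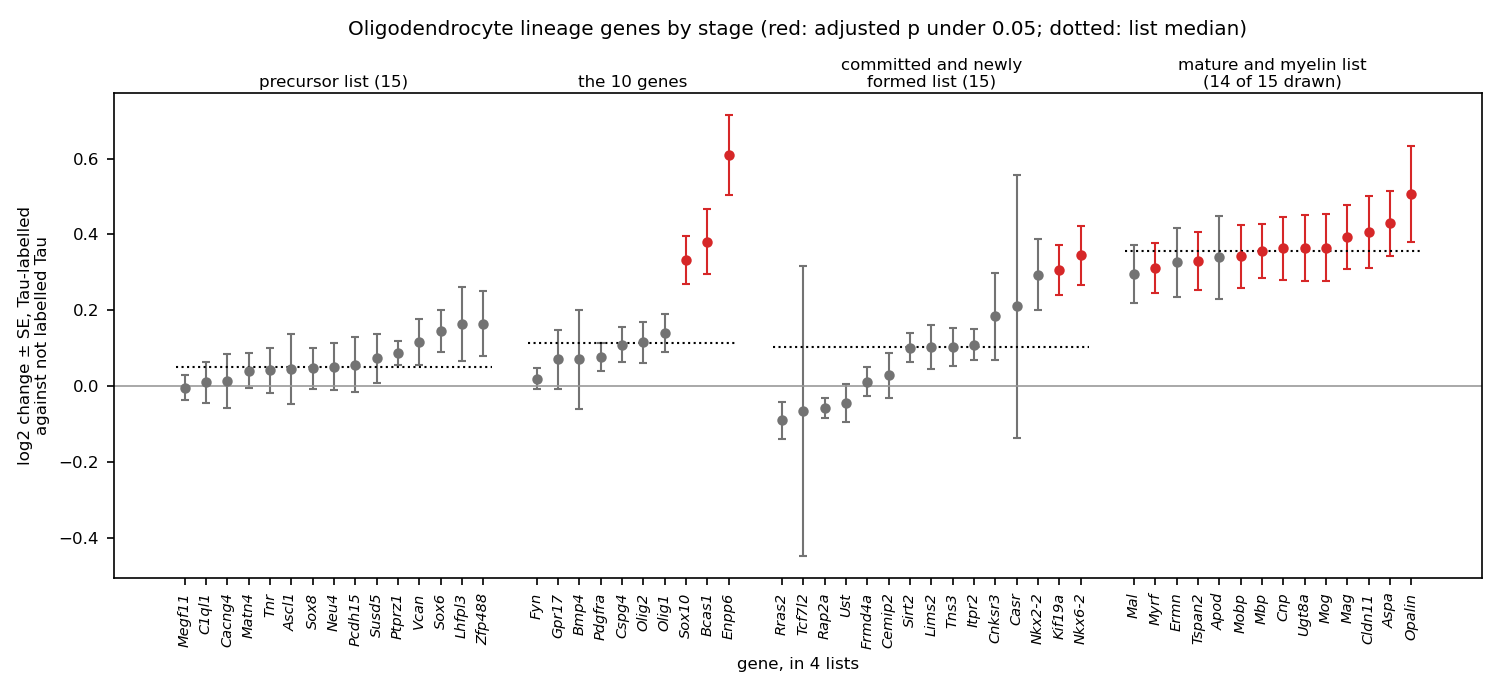
Difference between Tau-labelled and other libraries (vertical axis, log2 change ± SE) for the 10 genes and 3 lists of 15 genes of the oligodendrocyte lineage. Along the horizontal axis stand the precursor list, the 10 genes, the committed and newly formed list and the mature list. Within each, genes are sorted by their value, so the rise inside a block comes from the sorting. Red marks an adjusted p under 0.05 and the dotted line the median of a list, and 14 of the 15 mature and myelin genes are drawn. The precursor list sits near 0.05, the mature and myelin list near 0.36, and the 3 red genes among the 10 are Sox10, Bcas1 and Enpp6.

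Lists of further lineage genes were read beside the 10. Of 15 other precursor genes none passed in carriers against non-carriers by edgeR's quasi-likelihood test, 2 had an unadjusted p under 0.05, none passed with DESeq2, and their median was 0.05 (log2). The smallest p values belonged to the receptor phosphatase gene Ptprz1, at 0.09 (SE 0.03, adjusted p = 0.19), and the transcription factor gene Sox6, at 0.15 (SE 0.06, adjusted p = 0.21). Of 15 genes of committed and newly formed cells, 2 passed with edgeR and with DESeq2, and the median was 0.10. They were Kif19a, a kinesin gene, at 0.31 (SE 0.07, adjusted p = 0.020), and Nkx6-2, a transcription factor gene of differentiating oligodendrocytes, at 0.34 (SE 0.08, adjusted p = 0.024). None of the 15 passed without Tau naive replicate 2, APP trained replicate 1 or Tau trained replicate 1, and 1 passed without Tau trained replicate 3 or APP/Tau trained replicate 3.

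Of 15 genes of mature oligodendrocytes and myelin, 12 were higher in carriers with edgeR and 15 with DESeq2, with a median of 0.36. By p these were led by Mbp, myelin basic protein, at 0.36 (SE 0.07, adjusted p = 0.011 by edgeR's quasi-likelihood test), Aspa, aspartoacylase, at 0.43 (adjusted p = 0.012), the myelin regulatory factor Myrf at 0.31 (adjusted p = 0.018) and the myelin glycoprotein Mag at 0.39 (adjusted p = 0.020). The summed level of the 15 genes ran from 3838 to 6712 CPM in carriers (median 6069) and from 3330 to 6031 CPM in non-carriers (median 4665). The count of this list moved with single libraries: it was 2 without APP trained replicate 1, 3 without APP/Tau trained replicate 3, 4 without Tau naive replicate 2, Tau trained replicate 1 or Tau trained replicate 3, 5 without Tau naive replicate 4, and 7 without APP naive replicate 1, APP naive replicate 4, Tau naive replicate 1, APP/Tau naive replicate 6 or APP/Tau trained replicate 2. Without Tau trained replicate 4 it was 14. Beside this list's median of 0.36, Sox10 was at 0.33, Bcas1 at 0.38 and Enpp6, higher, at 0.61. Kif19a and Nkx6-2 of the committed and newly formed list also stood near Sox10. Every other gene of the 10 was between 0.02 (Fyn) and 0.14 (Olig1). That is a description, and the lists were not tested against each other.

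The genes around 3 members were followed in lists of their own. None of 5 PDGF ligands and receptors other than Pdgfra passed in carriers against non-carriers (none had an unadjusted p under 0.05). The nearest were the ligand gene Pdgfd, at 0.14 (SE 0.10, adjusted p = 0.59 by edgeR's quasi-likelihood test), and the receptor gene Pdgfrb, at 0.07 (adjusted p = 0.65). Of 21 BMP ligands, receptors, antagonists and targets other than Bmp4, 1 passed: Smad7, an inhibitor of the pathway's signalling, was higher by 0.20 (SE 0.04, adjusted p = 0.0084). None of 14 Src family kinases and Fyn partners passed (3 had an unadjusted p under 0.05), and the nearest was Dlg4, the postsynaptic scaffold gene, at -0.11 (SE 0.03, adjusted p = 0.063). None of 8 cell cycle genes passed (3 had an unadjusted p under 0.05, and the median was 0.14), with Top2a at 0.54 (SE 0.18, adjusted p = 0.15) and Mcm2 at 0.17 (adjusted p = 0.19).

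Markers of other cells moved with the same contrast in part. Of 9 microglial genes, 2 were higher in carriers: Cst7 by 4.08 (SE 0.85, log2, adjusted p = 0.016 by edgeR's quasi-likelihood test) and Clec7a by 3.96 (SE 0.88, adjusted p = 0.028), both genes of activated microglia. The Clec7a difference was uneven: the carriers had a median of 0.41 CPM and a highest value of 14.3 CPM, with 5 libraries above 6 CPM, and the non-carriers a median of 0.19 CPM and a highest value of 0.62 CPM. The summed level of the 9 genes ran from 284 to 598 CPM in carriers (median 331) and from 260.4 to 382 CPM in non-carriers (median 318), and 6 carriers stood above every non-carrier. The defining genes P2ry12 and Tmem119 differed by -0.01 and -0.06. None of 8 astrocyte, 8 neuron, 10 mural, 10 fibroblast, 10 choroid plexus or 8 striatal genes passed (3, 3, 0, 0, 0 and 0 had an unadjusted p under 0.05). Mural markers summed to 151 to 213 CPM in carriers and 93.5 to 233 CPM in non-carriers, and fibroblast markers to 91.9 to 413 and 91.5 to 452 CPM.

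With the mean log2 CPM of the mature myelin list as a covariate, none of the 10 genes passed, and the differences were 0.15 for Enpp6 (adjusted p = 0.58), 0.11 for Sox10 (adjusted p = 0.59) and 0.08 for Bcas1 (adjusted p = 0.75) by edgeR's quasi-likelihood test. With the mean log2 CPM of the microglial list as a covariate, chosen after seeing the data, none passed either: 0.49 for Enpp6 (adjusted p = 0.13), 0.23 for Sox10 (adjusted p = 0.28) and 0.27 for Bcas1 (adjusted p = 0.41). Both covariates differ with the transgene themselves, so what part they have in the differences cannot be told apart from the transgene in these fits.

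**Figure D3:**
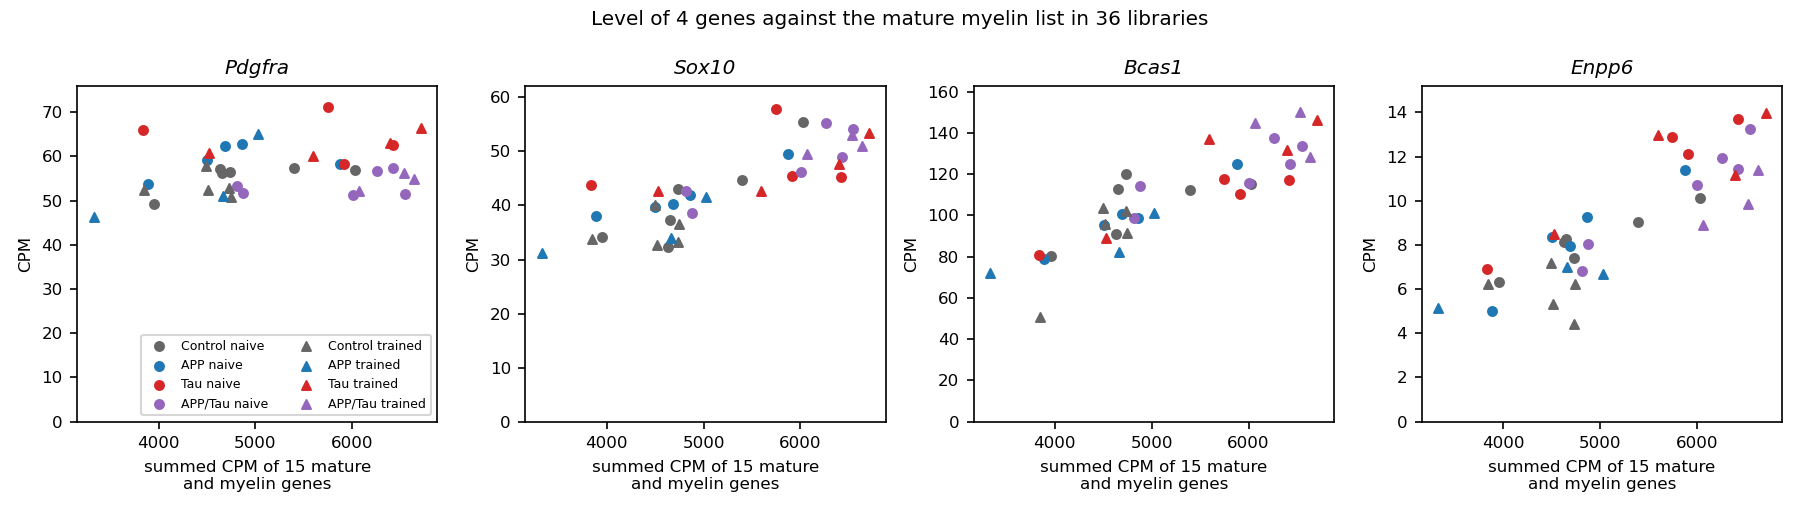
Level in CPM (vertical axis) of Pdgfra, Sox10, Bcas1 and Enpp6 against the summed CPM of 15 mature and myelin genes (horizontal axis, not starting at 0) in the 36 libraries, coloured by genotype, with circles for naive and triangles for trained. Enpp6, Bcas1 and Sox10 are higher in libraries with a larger myelin sum (r 0.87, 0.71 and 0.73 after subtracting group means), and Pdgfra less so (0.47).

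Library by library, after each group mean was subtracted, Enpp6 followed the mature myelin list with a Pearson r of 0.87 over the 36 libraries, Sox10 with 0.73 and Bcas1 with 0.71. Olig1 (0.60), Bmp4 (0.55), Olig2 (0.54), Pdgfra (0.47) and Fyn (0.42) followed it less, Gpr17 had 0.19 and Cspg4 -0.01. With the precursor list the order differed: Pdgfra and Gpr17 had 0.60, Sox10 0.57, Olig2 0.54, Cspg4 and Olig1 0.46, Enpp6 0.38 and Bcas1 0.32. Bmp4 had 0.26 with the precursor list. Its values with the BMP list (0.81), the fibroblast list (0.74), the PDGF list (0.66) and the committed list (0.62) were above its value with the mature myelin list. Fyn had 0.14 with the precursor list and 0.59 with a list of 8 neuronal genes, the highest of the 10 with that list. A list of 8 astrocyte genes was followed as closely by several members: Sox10 had 0.72, Olig2 0.68, Olig1 0.60, Pdgfra, Enpp6 and Bmp4 0.52, Gpr17 0.51, Cspg4 0.38, Bcas1 0.37 and Fyn 0.31. For Olig2, Pdgfra, Gpr17 and Cspg4 these values were above those with the mature myelin list, and for Sox10 and Olig1 they were about equal to them. All these values come from the same libraries, which share depth, dissection and scaling, and they are given as descriptions.

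Among the 10 genes themselves, the 45 pairwise correlations after subtracting group means ran from -0.09 to 0.71 with a median of 0.35. The closest pairs were Bcas1 with Bmp4 (0.71), Olig2 with Sox10 (0.69), Olig1 with Olig2 (0.67) and Sox10 with Enpp6 (0.64), and the farthest was Cspg4 with Bcas1 (-0.09). All correlations of Bcas1 given here include Control trained replicate 5, where it was far below its group (50.9 against 91.5 to 104 CPM). They were not computed without that library. Cspg4 was also near 0 with Enpp6 (0.05), whereas Pdgfra had 0.41 with Bcas1 and 0.35 with Enpp6.

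The genes most like each member over the 36 libraries were found by the same measure. For Enpp6 they were Ttyh2 (r 0.89), Cnp (0.87) and Mog (0.87), of which Cnp and Mog are genes of myelin. For Bcas1 they were LOC101056015 (0.95), Mbp (0.91) and Mobp (0.89), the last 2 of myelin. For Sox10 they were Gatm (0.84), Litaf (0.82) and Evi2a (0.82). For Olig1 they were Tmbim6 (0.84), Cd81 (0.81) and Ankrd40 (0.81), and for Olig2 Ddah1 (0.75), Mlc1 (0.75) and Tmed10 (0.74). For Pdgfra they were Sh3kbp1 (0.70), Sp1 (0.69) and Parvb (0.68), and for Cspg4 Ftl1 (0.76), Nomo1 (0.72) and Ftl1-ps1 (0.69), of which the last is a pseudogene of the first and may share its reads. For Gpr17 they were Lims2 (0.78), Fam20a (0.74) and Trp53inp2 (0.71), and for Fyn Arsb (0.79), Mapk10 (0.78) and Snrnp40 (0.78). For Bmp4 they were Itgb1 (0.83), Bgn (0.82) and Cavin1 (0.80), and Bgn and Cavin1 are known from vessels and connective tissue. Genes of the mature and myelin list were among the 3 closest only for Enpp6 and Bcas1. There were none for Sox10, Pdgfra, Cspg4, Gpr17, Olig1, Olig2, Bmp4 or Fyn.

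Each transgenic group was next set against the Control group of the same training state, so the 3 comparisons within a training state share their Control libraries. In Tau trained against Control trained, 1 of the 10 genes passed, Enpp6, against 77 of all genes (0.303% of genes tested). Enpp6 was higher by 0.99 on the log2 scale (SE 0.21, adjusted p = 0.024 by edgeR's quasi-likelihood test), from 5.89 ± 1.06 CPM (SD, n = 5) to 11.7 ± 2.4 CPM (SD, n = 4), with no overlap. The call was lost without Control trained replicate 1 (0.91, adjusted p = 0.099), Control trained replicate 2 (0.96, adjusted p = 0.075), Tau trained replicate 1 (0.89, adjusted p = 0.17), Tau trained replicate 2 (0.94, adjusted p = 0.084) or Tau trained replicate 3 (1.02, adjusted p = 0.072). Without the library labelled Tau trained replicate 4 the difference was 1.12 (adjusted p = 0.022).

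The other 9 genes were above 0 in the same comparison but did not pass. Bcas1 differed by 0.51 (SE 0.17, adjusted p = 0.14 by edgeR's quasi-likelihood test), Sox10 by 0.40 (SE 0.12, adjusted p = 0.11) and Pdgfra by 0.23 (SE 0.07, adjusted p = 0.11). Pdgfra had 66.3, 59.97, 63 and 60.6 CPM in Tau trained and 52.8, 52.4, 50.9, 57.8 and 52.3 CPM in Control trained. These Pdgfra values did not overlap. The Pdgfra difference of 0.08 over all groups averaged unlike pairs. APP/Tau was below APP in naive mice (-0.14, SE 0.06) and near it in trained mice (0.006, SE 0.09). Fyn differed by 0.19 (SE 0.05, adjusted p = 0.098), with 154, 160.0, 138 and 143 CPM against 127, 131, 136, 127 and 132 CPM, again with no overlap. It passed with DESeq2 (adjusted p = 0.035). Sox10 (lowest 42.6 against highest 40.0 CPM) and Olig1 (103 against 100.4 CPM) did not overlap either. The share of all genes that separate in this way was not counted, and 15.2% of them had an unadjusted p under 0.05 by edgeR's quasi-likelihood test. Other summed levels were separated between the same groups: the 8 neuronal genes had 10514 to 11642 CPM in Tau trained and 9444 to 10286 CPM in Control trained, and the 15 other precursor genes 776 to 821 CPM and 675 to 775 CPM. Their part in the Fyn and Pdgfra differences was not tested. Fitted on the libraries of these 2 groups alone, Sox10 passed with edgeR's quasi-likelihood test (adjusted p = 0.048).

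In APP/Tau trained against Control trained none of the 10 genes passed edgeR's quasi-likelihood test, 4 had an unadjusted p under 0.05, and 14 of all genes passed (0.0552% of genes tested). Bcas1 differed by 0.67 (SE 0.18, adjusted p = 0.18), Enpp6 by 0.77 (SE 0.23, adjusted p = 0.23), Bmp4 by 0.61 (SE 0.29, adjusted p = 0.47) and Sox10 by 0.54 (SE 0.13, adjusted p = 0.15). Enpp6, Sox10, Bcas1, Olig1 and Bmp4 did not overlap between the 2 groups. For Olig1 (lowest 105 against highest 100.4 CPM) and Bmp4 (2.11 against 2.01 CPM) the gap was narrow. The share of all genes that separate between groups of 3 and 5 libraries was not counted. 1 gene, Sox10, passed with DESeq2 (adjusted p = 0.031) and with edgeR fitted on these 2 groups alone (adjusted p = 0.035). Pdgfra and Fyn, at 0.03 and -0.01, did not show here the gap seen in Tau trained.

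In Tau naive against Control naive none of the 10 passed edgeR's quasi-likelihood test or DESeq2, 3 had an unadjusted p under 0.05, and 7 of all genes passed (0.0276% of genes tested). The 3 were Pdgfra at 0.21 (SE 0.07, adjusted p = 0.41), Cspg4 at 0.25 (SE 0.08, adjusted p = 0.41) and Enpp6 at 0.47 (SE 0.19, adjusted p = 0.48). Pdgfra had 62.6, 71.1, 65.9 and 58.3 CPM in Tau naive, all above the highest Control naive library (57.4 CPM). Cspg4 had 27.2, 27.6, 26 and 20.1 CPM in Tau naive and 19.4 to 23.7 CPM in Control naive, which overlapped through 1 library. In APP/Tau naive against Control naive none passed with either tool and none had an unadjusted p under 0.05, and 17 of all genes passed (0.067% of genes tested).

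**Figure D4:**
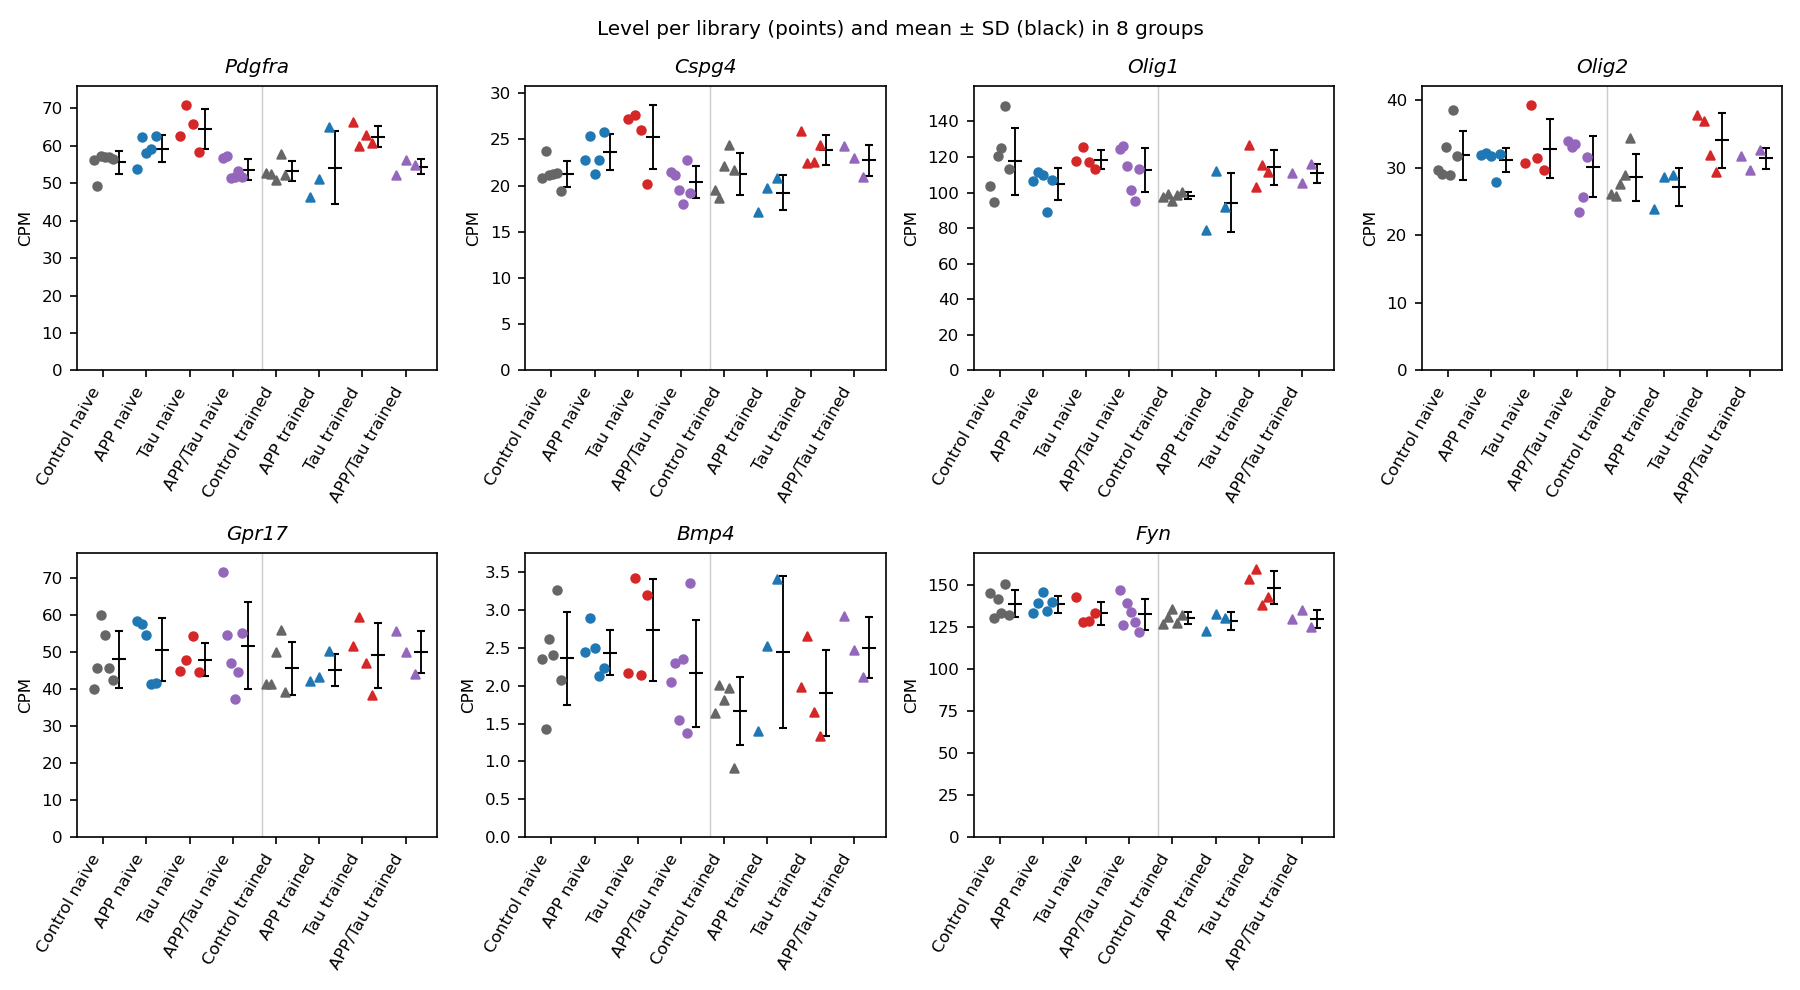
Level in CPM (vertical axis) of the 7 other genes in each of the 36 libraries (points) by group (horizontal axis), with the mean ± SD of each group in black. Pdgfra in Tau naive lies between 58.3 and 71.1 CPM and in APP/Tau naive between 51.3 and 57.4 CPM, with no overlap, while most other panels overlap across groups.

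Whether the 2 transgenes added up was tested as the difference between APP/Tau and the sum of the single effects. In naive mice none of the 10 genes passed edgeR's quasi-likelihood test or DESeq2, and no gene of the table did (0% of genes tested). Pdgfra and Cspg4, the precursor surface markers, had an unadjusted p under 0.05: -0.36 for Pdgfra (SE 0.09) and -0.46 for Cspg4 (SE 0.12), with an adjusted p = 0.42 for both. Each was higher in Tau naive and in APP naive than in Control naive, and APP/Tau naive was at 53.7 ± 2.8 CPM (SD, n = 6) for Pdgfra and 20.3 ± 1.7 CPM (SD, n = 6) for Cspg4, close to Control naive at 55.6 ± 3.1 CPM and 21.3 ± 1.4 CPM (SD, n = 6). In trained mice none passed with either tool, none had an unadjusted p under 0.05, and 3 of all genes passed (0.0118% of genes tested). Pdgfra was at -0.23 and Cspg4 at 0.08 there, so the naive pattern of Cspg4 was not seen in the trained groups, and the change between training states was not tested.

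The APP transgene moved none of the 10 genes past the threshold. In APP carriers (17 libraries) against non-carriers (19 libraries), 25 of all genes passed (0.0985% of genes tested), and 2 of the 10 had an unadjusted p under 0.05: Pdgfra at -0.09 (SE 0.04, adjusted p = 0.40 by edgeR's quasi-likelihood test) and Cspg4 at -0.09 (SE 0.05, adjusted p = 0.49). None passed with DESeq2. The genes that had passed for Tau were at -0.06 (Enpp6), 0.04 (Sox10) and 0.05 (Bcas1). In APP naive against Control naive none of the 10 passed with edgeR or DESeq2 and none had an unadjusted p under 0.05, with 9 of all genes passing (0.0355% of genes tested). In APP trained against Control trained none passed with either tool and 1, Bmp4 at 0.60 (SE 0.28, adjusted p = 0.84), had an unadjusted p under 0.05, with 7 of all genes passing (0.0276% of genes tested).

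Olig1 and Olig2 lie near a run of chromosome 16 genes that were lower in APP-labelled libraries. In the gene order of GRCm38.p6, 32 tested genes lie between Usp16 and Olig2, of which 8 were lower and none higher in APP carriers. Usp16 fell by 0.99 on the log2 scale (SE 0.03, adjusted p = 6.2e-23 by edgeR's quasi-likelihood test), Bach1 by 0.96 and Grik1 by 1.02. The gene nearest to Olig2 that passed was Tiam1, at -0.32 (SE 0.04, adjusted p = 6.2e-05), named after its value was seen. Of the 21 tested genes between Tiam1 and Olig2 none passed, and none of the 5 tested genes beyond Olig1 did. Olig2 and Olig1 were both at -0.09 (SE 0.06 and 0.05, adjusted p = 0.64 and 0.60), so the step of about 1 log2 unit seen at Usp16 was not seen at either gene.

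Training was compared with home cage in each genotype. None of the 10 genes passed edgeR's quasi-likelihood test or DESeq2 in Control, APP, Tau or APP/Tau, and no gene of the table passed edgeR's test in any of the 4 (0% of genes tested in each). An unadjusted p under 0.05 was reached by 3 of the 10 in Control, 1 in APP, 1 in Tau and none in APP/Tau. In Control they were Olig1 at -0.26 (SE 0.09), Enpp6 at -0.48 (SE 0.19) and Bmp4 at -0.53 (SE 0.24), each with an adjusted p = 0.84. Olig1 had 97.7, 98.9, 95.3, 98.7 and 100.4 CPM in Control trained, a narrow band, against 94.6 to 149 CPM in Control naive (median 117). Cspg4 was at -0.30 in APP (SE 0.10, adjusted p = 0.90) and Fyn at 0.16 in Tau (SE 0.06, adjusted p = 0.19).

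Over the 4 genotypes together, trained against naive gave none of the 10 with edgeR's quasi-likelihood test or DESeq2, and no gene of the table passed edgeR's test (0% of genes tested). All 10 values were below 0, from -0.23 for Enpp6 (SE 0.11, adjusted p = 0.59) to -0.0009 for Bcas1, and 2, Enpp6 and Olig1, had an unadjusted p under 0.05. Against this, 51.0% of all genes were above 0.

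The interactions asked whether a transgene's difference from Control depended on training. For Tau by training none of the 10 genes passed edgeR's quasi-likelihood test or DESeq2, 2 had an unadjusted p under 0.05, and no gene of the table passed (0% of genes tested). The 2 were Fyn at 0.25 (SE 0.07, adjusted p = 0.41) and Bcas1 at 0.49 (SE 0.23, adjusted p = 0.54). Enpp6 was at 0.52 (SE 0.28, adjusted p = 0.58) and Sox10 at 0.18 (SE 0.17, adjusted p = 0.77), so their larger gaps between Tau and Control in trained mice were not shown to differ from those in naive mice. For APP by training and for APP/Tau by training none of the 10 passed with either tool, 1 had an unadjusted p under 0.05 in each, and no gene of the table passed edgeR's test (0% of genes tested in both). These were Cspg4 at -0.30 (SE 0.13, adjusted p = 1.00) and Bmp4 at 0.74 (SE 0.36, adjusted p = 0.98).

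**Figure D5:**
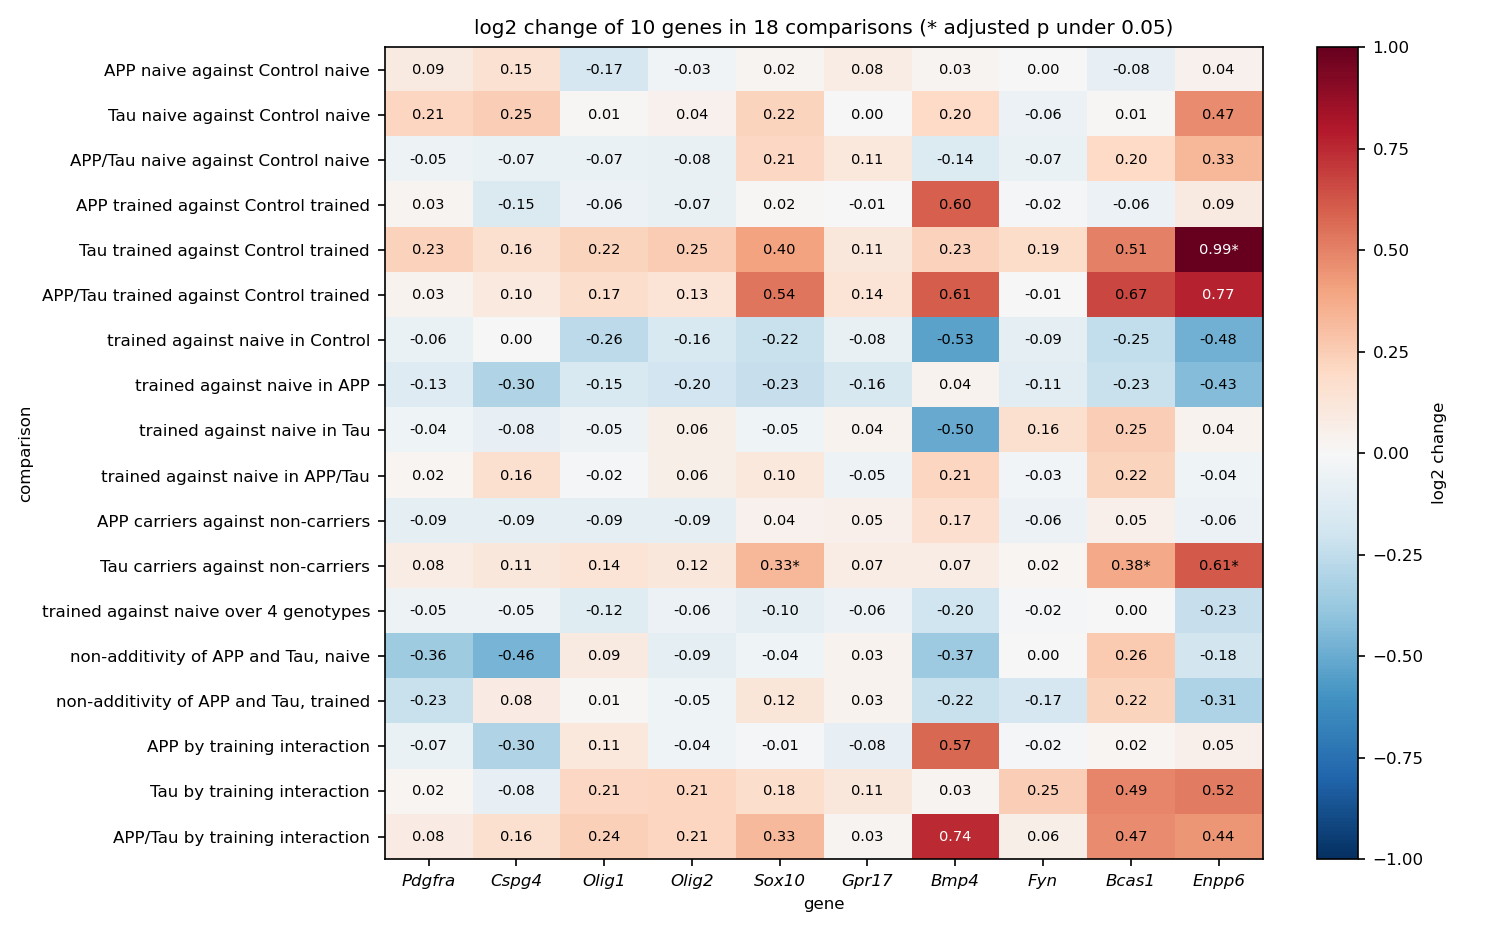
Log2 change (colour and printed value) of the 10 genes (horizontal axis) in the 18 comparisons (vertical axis), with a star where the adjusted p was under 0.05. The 4 stars are Enpp6, Sox10 and Bcas1 in Tau carriers against non-carriers and Enpp6 in Tau trained against Control trained.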

How the data were processed

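The authors deposited raw counts per gene for 36 hippocampal input libraries, whole numbers in 1 table of 50559 genes. Trimmomatic 0.39 and the build mm39 are named in the submitters' processing notes. Which aligner, counter, annotation and strand setting made the counts is not given in the sources used here, so reads of overlapping and antisense genes cannot be told apart. Per the labels' protocols, poly(A) libraries were sequenced in pairs.

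Here, the counts were scaled by TMM and fitted with edgeR 4.0.16 (limma 3.58.1, R 4.3.3) after filterByExpr (minimum count 10, minimum total 15), with 1 mean for each of 8 groups, the robust quasi-likelihood test on 28 residual degrees of freedom and Benjamini-Hochberg adjustment over 25382 genes, in 18 comparisons. Carrier contrasts average the 4 pairs of groups with equal weight. Samples are numbered, but no label ties each to a separate mouse, and p-values therefore reflect only the spread among samples, which may be technical. No pair of libraries in a group was identical (68 pairs). The 10 genes and all gene lists were chosen with earlier results of these data known. The text names all 10 genes, the up to 4 genes of a list with the smallest p among those that passed (otherwise the 2 with the smallest p), the 3 genes with the highest group-centred correlation with a member (names of the Gm-number and Rik kinds left out), chromosome 16 neighbours of Olig1 and Olig2, and Prnp and Usp16 as label checks. The alternatives were size factors, no filter, DESeq2 1.42.0, a replicate block, covariates, smaller fits and libraries left out. 1 gene of the mature and myelin list is counted in the list's totals and is not reported here by itself.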

Additional observations from a re-analysis of the deposited data

Results flagged for a closer look

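Within groups of 4 to 6 libraries, 6 of the 60 combinations of gene and group had 1 library far from the others by Dixon's criterion, and chance gives about 1 in 20. Pdgfra was low in Control naive replicate 2, at 49.3 CPM against 56.3 to 57.4 CPM in the other 5. It was high in Control trained replicate 4, at 57.8 CPM against at most 52.8 CPM, and this is the library with high striatal markers. APP naive replicate 4 was low for both Olig1, at 89.1 CPM against 106 to 112 CPM, and Olig2, at 27.9 CPM against 31.6 to 32.1 CPM. Sox10 was high in Tau naive replicate 2, at 57.8 CPM against at most 45.5 CPM. Bcas1 was low in Control trained replicate 5, at 50.9 CPM against 91.5 to 104 CPM in the other 4.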

How the results depend on the processing

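Of the 18 counts of the 10 genes that passed, 15 kept their value in every alternative, and each of these was a count of 0. Both comparisons in which any of the 10 passed are among those that changed. In Tau trained against Control trained (1 gene) the count was 2 with DESeq2, 2 in the fit on only the groups compared, 0 with the mature myelin covariate, and 0 to 1 with each library left out. In APP/Tau trained against Control trained (0 genes) it was 1 with DESeq2 and 1 in the fit on only the groups compared. In Tau carriers against non-carriers (3 genes) it was 0 with the mature myelin covariate and 0 with the microglia covariate, and 2 to 3 with each library left out. There, values changed sign with the mature myelin covariate for Olig1 (-0.0021), Olig2 (-0.026), Bmp4 (-0.27) and Fyn (-0.032), and with the microglia covariate for Gpr17 (-0.036) and Bmp4 (-0.12). The cause was not tested.

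In the same comparison the committed and newly formed list (2 genes) had 0 with the mature myelin covariate, 0 with the microglia covariate, 0 without 6 doubted libraries, and 0 to 2 with each library left out. The mature and myelin list (12 genes) had 4 without a filter on low counts, 0 under the mature myelin covariate, which is made of the same genes, 0 with the microglia covariate, 6 without 6 doubted libraries, and 2 to 14 with each library left out. Bcas1 missed the threshold with no filter (adjusted p = 0.055) and without the 6 libraries (adjusted p = 0.052, edgeR's quasi-likelihood test). The 6 are Tau trained replicate 4, Control trained replicate 4 and the other libraries with Pvalb under 5 CPM. Leaving them out and the microglia covariate were chosen after seeing the data.

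Over all genes, 212 passed for Tau carriers and 568 did with DESeq2, 124 with no filter, 96 without the 6 libraries, 12 with the microglia and 8 with the mature myelin covariate. For Tau trained against Control trained 77 passed, against 555 with DESeq2, 244 with the library number, 156 with the choroid plexus and 1 with the mature myelin covariate, 230 in the fit on only the groups compared, and 19 and 14 without 2 and 6 libraries.

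Same-numbered libraries of different groups did not deviate together (mean r -0.02, over 0.1 in 29 of 106 pairs), and 5 of 36 libraries were most like one of their own number, so the numbers do not pair. With the number as a replicate block, 3 genes passed in Tau carriers, with Enpp6 at 0.61 (adjusted p = 0.0094), Sox10 at 0.35 (adjusted p = 0.0075) and Bcas1 at 0.36 (adjusted p = 0.050, edgeR's quasi-likelihood test). Another scaling moved no median over all genes by more than 0.011. Groups of 3 to 6 libraries limit the precision, most for the low counts of Bmp4 and Enpp6.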
